A study of Mus musculus with 12 samples.

Results

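The genes described here are 57 genes that build, copy or divide the genome of a cycling cell, together with the regulators that start and stop that program. They were chosen by symbol from a list of cell cycle genes, and their identifiers were looked up in a matrix of 56980 mouse genes. All 57 were found, and all 57 were among the 17691 genes that entered the tests, each with 10 counts or more over all libraries together. They were measured by bulk RNA-Seq in W-20 cells, a line of mouse bone marrow stromal cells that can become osteoblasts or adipocytes. The matrix held 12 libraries, 3 in each of 4 groups. W20 cells, the WT line, received 50 nM PTH or PBS as vehicle for 2 hours, and Y428F cells received the same 2 treatments. PTH is parathyroid hormone, which acts on stromal cells through a G protein-coupled receptor. Y428F names a tyrosine-to-phenylalanine change in YAP, the transcriptional coactivator that Hippo signaling restrains, and the study's text gives the mutant cells of its RNA-Seq comparison a second change in YAP, S381A, at a site that the LATS kinases phosphorylate to mark YAP for degradation. The comparison of the lines asked how the mutant cells differed in their transcriptome without and with PTH.

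Several features limit what the groups stand for. The study made its mutant lines from plasmids with a Flag-tagged YAP and selected positive clones with puromycin. The plasmids it altered are named for the CMV promoter, it also lists a lentiviral vector named for PGK, and the promoter that drove YAP in the sequenced line is not given in the sources used here. It describes no editing of the cells' own *Yap1*. It made lines with Y428F alone as well as with both changes, and the titles of the libraries name only Y428F, so S381A rests on the study's text and not on the labels. The genotype label of the Y428F libraries reads WT, and their group was taken from the titles. No library of cells given unmutated YAP was analysed here, so what the mutation did and what else sets the lines apart cannot be told apart. The labels do not say whether the 3 libraries of a group came from separate cultures, and p-values then measure only the spread between these libraries, which may be technical. In bulk RNA, fewer cycling cells and less RNA per cycling cell cannot be told apart.

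*Yap1* (chr9:7932000-8004661 in GRCm39), the gene the line was made with, was lower in the Y428F libraries. It was read at 181, 192 and 194 CPM (counts scaled to library size with TMM) in W20 cells with vehicle and at 245, 246 and 230 CPM with PTH. In Y428F cells it was read at 150, 141 and 149 CPM with vehicle and at 171, 169 and 174 CPM with PTH. The line difference was a log2 fold change of −0.37 with vehicle (adjusted p = 7.70e-06, quasi-likelihood test of edgeR, p-values adjusted after Benjamini and Hochberg) and −0.49 with PTH (adjusted p = 1.35e-07, edgeR). Whether reads of the plasmid's YAP were counted at *Yap1* is not given in the sources used here, so its level does not check the labels.

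Of the markers of the labelled cell type, *Col1a1*, *Col1a2*, *Vim* and *Pdgfrb* were abundant in every library, whereas *Thy1* had 0 counts in all 12 and *Nt5e* at most 2. The libraries held 17127897 to 19057319 counts each, and their median total was 17740980. The lowest count of any of the 57 genes in any library was 34, for *E2f2*.

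A cell that leaves G1 uses D-type cyclins with CDK4 and CDK6, and then cyclin E with CDK2, to phosphorylate the retinoblastoma family of pocket proteins. This frees E2F factors, which switch on the genes of DNA replication and nucleotide supply. Later in the cycle the MYBL2 and FOXM1 factors, acting with the MuvB complex, switch on mitotic cyclins, kinases and spindle proteins. CDK inhibitors of the INK4 family (*Cdkn2a*, *Cdkn2b*, *Cdkn2c*) and p27 (*Cdkn1b*) hold the cycle back. Stromal cells of the bone marrow usually slow their division as they differentiate, and YAP is known as a factor that promotes proliferation.

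The promoters of such genes often carry 2 kinds of short words, one that E2F factors recognize and one, the cell cycle genes homology region or CHR, that the DREAM and MuvB complexes recognize. Promoter windows from RefSeq, made on GRCm38.p6 and reaching from 250 bases before to 50 bases after a start, were given for 45 of the 57 genes in 50 windows. Both strands were searched for the E2F words TTTGGCGC, TTTCGCGC, TTTCCCGC and TTTGCCGC and for the CHR word TTTGAA. An E2F word was present in 2.26% of all 32851 windows and in 26% of the windows of these genes. It fell in 6 of 8 genes of replication origins and forks and in 2 of 6 G1 cyclins and CDKs. In the group of nucleotide supply, uracil repair and histone mRNA it fell in 0 of 5 genes. A CHR word was present in 17.9% of all windows and in 30% of the windows of these genes, where it fell in 4 of 5 genes of mitotic cyclins and entry kinases and in 5 of 9 of the spindle and kinetochore, and in 1 of 8 genes of origins and forks. The word CCAAT, which often stands near a CHR, was present in 37.4% of all windows and in 68% of the windows of these genes. Such a match is a description of letters, not a site of binding, and it was not tested against the expression values.

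The promoters of *Mcm5*, of the replicative helicase, *E2f7*, a repressor of the E2F family, *Cdk1*, the kinase of mitotic entry, and *Top2a*, the topoisomerase that untangles chromosomes, are printed to show these words in genes whose values are given below. Each runs 5′ to 3′ on the gene's strand up to the RefSeq start or, for *Cdk1* and *Top2a*, to the first base that GENCODE vM39 annotates as exon, and each was placed in GRCm39 by an exact match of the full 250 bases. Capitals mark E2F and CHR words on either strand. *Mcm5* is at chr8:75835887-75836136 (plus strand), *E2f7* at chr10:110581050-110581299 (plus strand), *Cdk1* at chr10:69188773-69188992 (minus strand) and *Top2a* at chr11:98915063-98915265 (minus strand).
Mcm5: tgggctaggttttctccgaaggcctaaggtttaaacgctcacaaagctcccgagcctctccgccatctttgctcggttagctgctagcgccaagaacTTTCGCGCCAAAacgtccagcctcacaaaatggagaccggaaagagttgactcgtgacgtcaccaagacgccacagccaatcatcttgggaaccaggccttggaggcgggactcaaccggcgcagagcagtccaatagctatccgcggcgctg
E2f7: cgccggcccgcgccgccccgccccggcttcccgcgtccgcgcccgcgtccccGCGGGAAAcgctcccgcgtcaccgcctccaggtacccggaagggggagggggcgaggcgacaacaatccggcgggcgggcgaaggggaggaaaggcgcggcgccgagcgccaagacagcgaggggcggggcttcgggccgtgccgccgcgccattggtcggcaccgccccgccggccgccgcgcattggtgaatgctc
Cdk1: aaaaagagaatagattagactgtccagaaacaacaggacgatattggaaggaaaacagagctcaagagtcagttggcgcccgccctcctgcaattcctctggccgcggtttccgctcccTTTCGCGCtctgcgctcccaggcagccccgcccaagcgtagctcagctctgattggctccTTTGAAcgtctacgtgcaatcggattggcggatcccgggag
Top2a: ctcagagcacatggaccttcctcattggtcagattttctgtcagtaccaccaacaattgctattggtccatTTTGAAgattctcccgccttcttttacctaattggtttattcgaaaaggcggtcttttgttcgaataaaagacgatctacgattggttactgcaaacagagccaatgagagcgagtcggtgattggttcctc
In *Mcm5* the capitals hold overlapping E2F words on opposite strands, at positions −153 to −146 and −149 to −142 from the start. *E2f7* has 1 E2F word, read on the other strand. *Cdk1* has an E2F word at −131 to −124 and a CHR word at −71 to −66, and *Top2a* has a CHR word at −179 to −174. A further CHR word of *Cdk1* and of *Top2a* lies in the exon bases that are not printed.

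In untreated W20 cells the genes differed widely in level. Per kb of exon, the highest mean level was that of *Cdkn2a* at 433 CPM, which encodes both the INK4A inhibitor and ARF from shared exons, so that its counts do not separate the 2 products. *Cdk4* followed at 138 CPM per kb, *Ccnd2* at 74.5, *Ccnd1* at 56.4 and *Cdkn2b* at 55.5. The lowest were *E2f2* at 0.705 CPM per kb, *Rb1* at 0.738 and *Ung* at 1.09. The top of the range thus held 2 D-type cyclins, a kinase they bind, *Cdkn2b*, an inhibitor of that kinase, and *Cdkn2a*, whose counts also include ARF. By contrast, *Ccnd3* at 27.5 CPM per kb, *Cdkn2c* at 25.3 and *Cdk6* at 7.49 lay below *Pcna* at 47.4.

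**Figure D1:**
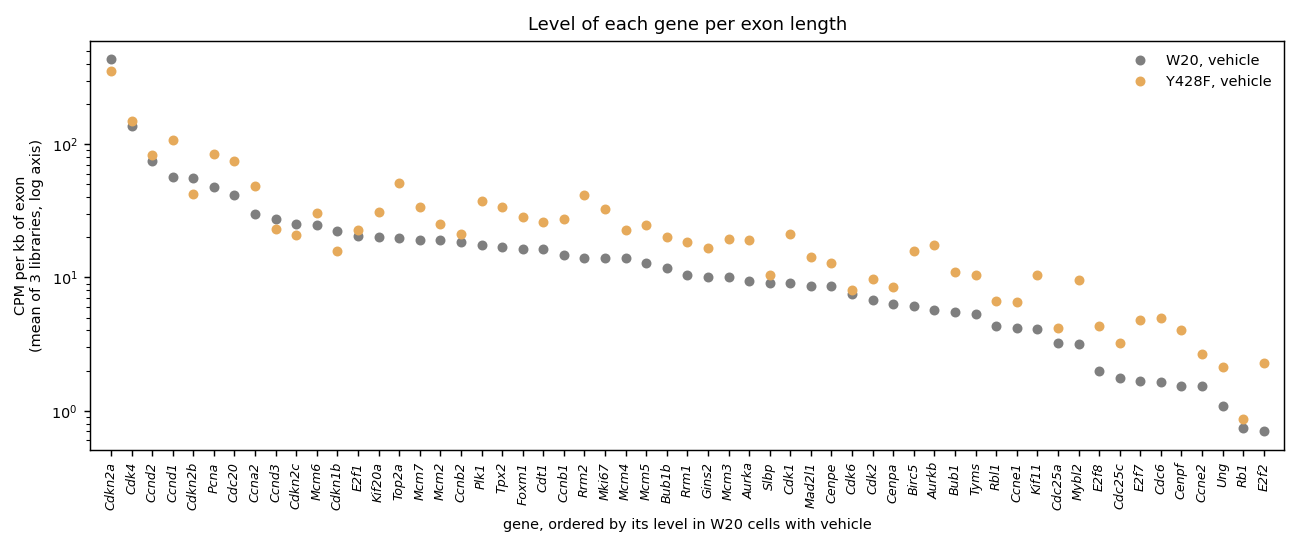
Mean level of each of the 57 genes in CPM per kb of exon (vertical log axis) in cells with vehicle, ordered from left to right by the level in W20 cells. Grey points are W20 cells and orange points Y428F cells, each the mean of 3 libraries, and *Cdkn2a* at 433 CPM per kb in W20 cells is the highest value of that line.

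In the absence of PTH, nearly the whole program stood higher in Y428F cells. Of the 57 genes, 49 were higher and 5 lower than in W20 cells at an adjusted p under 0.05 (edgeR), where 22.4% of all genes tested were higher and 22.7% lower. The median log2 fold change of the 57 was 0.79, against 0.01 over all genes tested. The lower genes were *Ccnd3*, *Cdkn1b*, *Cdkn2a*, *Cdkn2b* and *Cdkn2c*, and *Cdk4*, *Cdk6* and *Rb1* passed the test in neither direction. With library totals in place of TMM, all 57 genes passed it. Among genes with at least 10 counts in every library, 94.7% of the 57 were called in either direction, against 61.4% of all such genes. The libraries of the lines did not overlap for 54 of the 57 genes, and for 53.8% of all genes. At the stricter limit of an adjusted p under 0.01 together with a log2 fold change past 0.3 on either side, 47 of the 57 were called, against 31.0% of all genes. The 57 genes held between 0.539% and 0.585% of the counts of a W20 library with vehicle and between 0.831% and 0.839% of a Y428F library with vehicle. These are RNA levels and do not measure how fast the cells divided. The study's own proliferation assay found no significant difference between control cells and cells with S381A and Y428F.

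With PTH the counts were close to these: 50 of the 57 genes were higher in Y428F cells and 5 lower (edgeR), where 22.8% of all genes were higher and 23.0% lower. The median was 0.86, against 0.02 over all genes. The 2 line comparisons share no library. They do compare the same 2 lines and draw on a common estimate of the spread from all libraries. All 49 genes that were higher with vehicle and all 5 that were lower were called in the same direction with PTH. *Cdk4* was the added gene. Among genes with at least 10 counts in every library, 96.5% of the 57 were called in either direction, against 61.8% of all such genes. Of the lower calls with PTH, *Ccnd3*, *Cdkn2a* and *Cdkn2c* were lost with library totals, *Cdkn2a* and *Cdkn2c* without the third W20 PTH or the second Y428F PTH library, *Cdkn2c* also without the first W20 PTH library, and all 5 at the stricter limit. The libraries did not overlap for 56 of the 57 genes, and for 51.9% of all genes, and 46 of the 57 passed the stricter limit, against 31.6%.

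**Figure D2:**
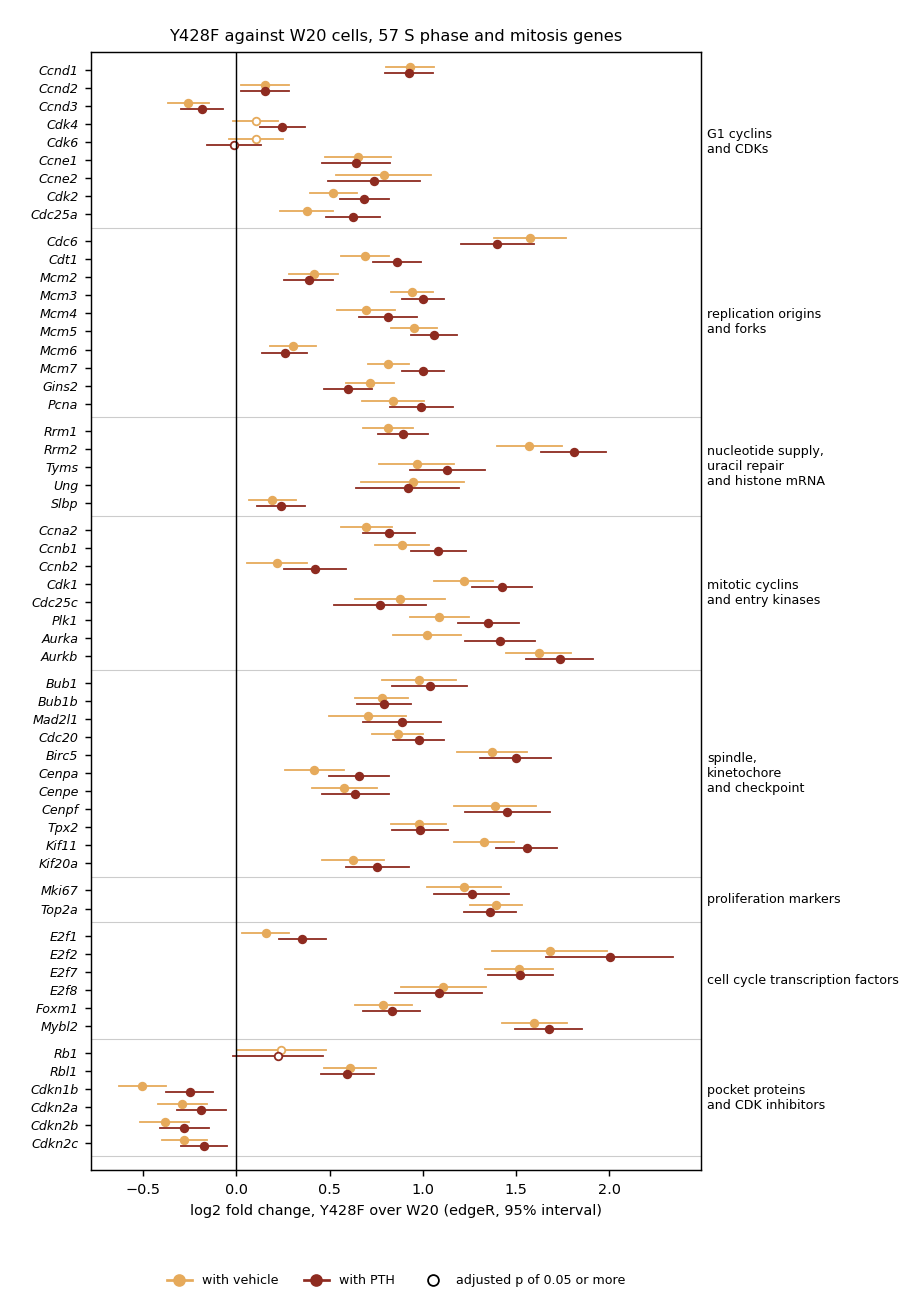
Log2 fold change of each gene in Y428F over W20 cells (horizontal axis) with its 95% interval, in cells with vehicle (orange) and with PTH (dark red), in groups by role. Filled points have an adjusted p under 0.05 in edgeR; nearly all lie to the right of 0, and the CDK inhibitors and *Ccnd3* lie to the left.

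Among the G1 cyclins and their kinases, 6 of 9 were higher in Y428F cells with vehicle and 1, *Ccnd3*, was lower. *Ccnd1*, cyclin D1, was read at 259, 268 and 281 CPM in W20 cells with vehicle and at 530, 509 and 506 CPM in Y428F cells. With PTH it was read at 236, 250 and 212 CPM in W20 cells and at 427, 458 and 440 CPM in Y428F cells. Every Y428F library was above every W20 library, with a log2 fold change of 0.93 with vehicle (SE 0.0613, adjusted p = 9.45e-11, edgeR) and 0.92 with PTH. *Ccnd2*, the most abundant D-type cyclin per length in W20 cells but not in Y428F cells, showed a smaller difference, with means of 701 ± 14.0 and 780 ± 3.88 CPM (SD, n = 3) with vehicle. Its call was lost in 7 of the 12 fits that left out a library, with vehicle and also with PTH, and with PTH when only the libraries compared were fitted. *Ccnd3* fell between 238 and 263 CPM in W20 cells and between 208 and 217 CPM in Y428F cells with vehicle.

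*Ccne1*, cyclin E1, the partner of CDK2 at the entry into S phase, was read at 15.8, 14.3 and 15 CPM in W20 cells with vehicle and at 21.4, 24.6 and 24.8 CPM in Y428F cells. The PTH libraries gave 15, 14.8 and 15.7 CPM in W20 cells and 24.5, 23.2 and 23.5 CPM in Y428F cells. The lines did not overlap, and the log2 fold change was 0.65 with vehicle (SE 0.0858, adjusted p = 2.24e-06, edgeR) and 0.64 with PTH. *Cdc25a*, the phosphatase that activates CDK2, had means of 28.1 ± 1.56 and 36.6 ± 0.70 CPM (SD, n = 3) in W20 and Y428F cells with vehicle. *Cdk4* and *Cdk6*, the kinases that D-type cyclins bind, had means of 474 ± 18.5 and 108 ± 9.51 CPM (SD, n = 3) in W20 cells with vehicle and of 509 ± 1.27 and 116 ± 1.88 CPM in Y428F cells.

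All 10 genes of replication origins and forks were higher in Y428F cells in each line comparison, with a median log2 fold change of 0.77 with vehicle and 0.93 with PTH. *Cdc6*, which loads the helicase onto origins, led the group. It was read at 10.2, 8.70 and 8.32 CPM in W20 cells with vehicle and at 26.9, 27.7 and 26.5 CPM in Y428F cells. After PTH the level was 9.20, 10.1 and 8.97 CPM in W20 cells and 25.3, 24.0 and 25.2 CPM in Y428F cells. Y428F libraries were all above W20 libraries, at 2.98-fold with vehicle (log2 fold change 1.57, SE 0.0924, adjusted p = 1.67e-11, edgeR).

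The helicase subunits themselves spanned a range. *Mcm2* was read at 158, 136 and 157 CPM in W20 cells with vehicle and at 197, 196 and 208 CPM in Y428F cells. Under PTH the libraries held 152, 146 and 132 CPM in W20 cells and 192, 187 and 184 CPM in Y428F cells. Its log2 fold change, 0.42 with vehicle (SE 0.0634, adjusted p = 1.48e-05, edgeR) and 0.39 with PTH, was the smallest of the group after *Mcm6*. *Mcm3* and *Mcm5*, the latter with its E2F words printed above, had means of 63.1 ± 0.708 and 88.0 ± 6.78 CPM (SD, n = 3) in W20 cells with vehicle and of 121 ± 2.02 and 171 ± 2.40 CPM in Y428F cells. The libraries of the lines did not overlap for any of these subunits at the same treatment.

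*Pcna*, the sliding clamp of DNA polymerases, was read at 132, 104 and 106 CPM in W20 cells with vehicle and at 198, 212 and 201 CPM in Y428F cells. In the treated groups it stood at 118, 111 and 129 CPM in W20 cells and at 257, 227 and 229 CPM in Y428F cells. The lines did not overlap, with a log2 fold change of 0.84 with vehicle (SE 0.0803, adjusted p = 2.62e-08, edgeR) and 0.99 with PTH.

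Nucleotide supply, uracil repair and the histone mRNA binding protein *Slbp* made up a group of 5, all higher in Y428F cells in each comparison. *Rrm2*, the small subunit of ribonucleotide reductase, which makes deoxyribonucleotides, was read at 55.3, 41.6 and 43.4 CPM in W20 cells with vehicle and at 136, 135 and 146 CPM in Y428F cells. With PTH it was read at 52.4, 47.4 and 49.4 CPM in W20 cells and at 186, 172 and 166 CPM in Y428F cells. The lines differed by a log2 fold change of 1.57 with vehicle (SE 0.0829, adjusted p = 3.05e-12, edgeR) and 1.81 with PTH (SE 0.0831, adjusted p = 3.52e-13, edgeR), with no overlap. *Rrm1*, the large subunit of the same enzyme, had means of 123 ± 11.5 and 216 ± 2.92 CPM (SD, n = 3) with vehicle, and *Slbp* of 61.4 ± 4.98 and 70.2 ± 0.966 CPM, where the call was lost without the third W20 or the third Y428F vehicle library.

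All 8 mitotic cyclins and entry kinases were higher in Y428F cells, with a median log2 fold change of 0.96 with vehicle and 1.22 with PTH. *Cdk1* was read at 61.4, 48.5 and 50.3 CPM in W20 cells with vehicle and at 123, 123 and 126 CPM in Y428F cells. The PTH libraries gave 50.5, 48.5 and 52.6 CPM in W20 cells and 147, 127 and 134 CPM in Y428F cells. The first W20 vehicle library was the highest of its line and still below every Y428F library, and the log2 fold change was 1.22 with vehicle (SE 0.0759, adjusted p = 4.15e-11, edgeR) and 1.43 with PTH.

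*Ccnb1*, cyclin B1, which activates CDK1, was read at 71.6, 60.6 and 57.4 CPM in W20 cells with vehicle and at 115, 120 and 116 CPM in Y428F cells. After PTH the level was 62.0, 63.0 and 61.4 CPM in W20 cells and 140, 129 and 125 CPM in Y428F cells. Between the lines the difference on the log2 scale was 0.89 with vehicle (SE 0.0698, adjusted p = 1.47e-09, edgeR) and 1.08 with PTH. *Aurkb*, the kinase that corrects the attachment of chromosomes to the spindle, showed the largest difference of the group. It was read at 21.0, 19 and 20.5 CPM in W20 cells with vehicle and at 59.1, 61.5 and 65.9 CPM in Y428F cells, and with PTH at 16.4, 18.1 and 14.0 CPM and at 55.7, 50.9 and 54.5 CPM. All Y428F libraries were far above all W20 libraries, at 3.08-fold with vehicle (log2 fold change 1.62, SE 0.0829, adjusted p = 1.90e-12, edgeR) and 3.33-fold with PTH. *Ccnb2* showed the smallest difference, with means of 40.7 ± 3.58 and 47.4 ± 3.35 CPM (SD, n = 3) and overlapping libraries with vehicle. Its call with vehicle was lost without the second or the third W20 vehicle library or the first or the second Y428F vehicle library.

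The 11 genes of the spindle, kinetochore and spindle checkpoint were all higher in Y428F cells as well, with a median log2 fold change of 0.87 with vehicle and 0.98 with PTH. *Kif11*, the motor that pushes spindle poles apart, was read at 40.4, 34.0 and 36.3 CPM in W20 cells with vehicle and at 90.3, 92.4 and 95.3 CPM in Y428F cells. Under PTH the libraries held 35.6, 34.8 and 28.0 CPM in W20 cells and 94.0, 98.5 and 96.8 CPM in Y428F cells. The lines did not overlap, with a log2 fold change of 1.56 with PTH (SE 0.0790, adjusted p = 1.64e-12, edgeR). *Birc5*, survivin of the chromosomal passenger complex, had means of 27.7 ± 4.52 and 71.6 ± 1.61 CPM (SD, n = 3) in W20 and Y428F cells with vehicle, and *Cenpa*, the histone H3 variant of centromeres, of 84.3 ± 10.4 and 113 ± 2.59 CPM.

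The proliferation markers followed. *Mki67*, which encodes the Ki-67 antigen used to stain cycling cells, was read at 147, 133 and 151 CPM in W20 cells with vehicle and at 337, 347 and 322 CPM in Y428F cells. In the treated groups it stood at 127, 135 and 107 CPM in W20 cells and at 242, 331 and 314 CPM in Y428F cells. The first Y428F library with PTH was the lowest of its line and still well above every W20 library. The log2 fold change was 1.22 with vehicle (SE 0.0950, adjusted p = 1.26e-09, edgeR) and 1.26 with PTH.

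*Top2a* was read at 188, 166 and 182 CPM in W20 cells with vehicle and at 471, 475 and 462 CPM in Y428F cells. With PTH it was read at 169, 166 and 147 CPM in W20 cells and at 392, 446 and 398 CPM in Y428F cells. The log2 fold change was 1.39 with vehicle (SE 0.0668, adjusted p = 7.51e-13, edgeR) and 1.36 with PTH, with no overlap.

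**Figure D3:**
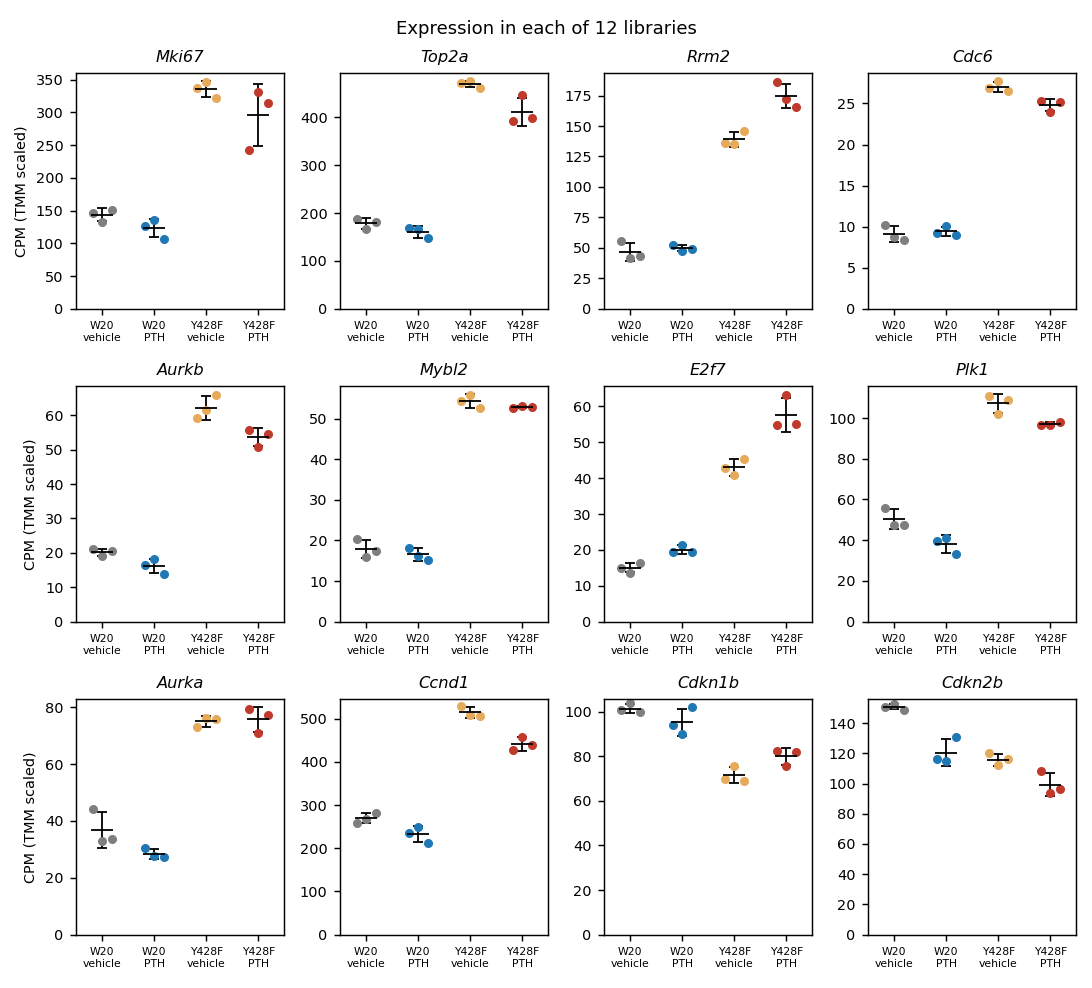
CPM (TMM scaled, vertical axes from 0) of 12 of the genes in each of the 12 libraries, in the 4 groups of line and treatment. Each point is a library, horizontal lines are means and bars are the SD of 3 libraries; *Rrm2* lies between 41.6 and 55.3 CPM in W20 cells and between 135 and 186 CPM in Y428F cells, whereas *Cdkn1b* and *Cdkn2b* lie lower in Y428F than in W20 cells of the same treatment.

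All 6 transcription factors of the list were higher in Y428F cells in each line comparison, with a median log2 fold change of 1.31 with vehicle and 1.30 with PTH, but they differed among themselves. *E2f1*, an activating E2F, showed the smallest difference. It was read at 73.7, 65.7 and 73.6 CPM in W20 cells with vehicle and at 80.7, 78.2 and 78.7 CPM in Y428F cells, and with PTH at 63.6, 62.9 and 58.8 CPM and at 82.4, 78.7 and 75.7 CPM. Its log2 fold change was 0.16 with vehicle (SE 0.0600, adjusted p = 0.0375, edgeR) and 0.35 with PTH (SE 0.0609, adjusted p = 6.03e-05, edgeR). The call with vehicle was lost without the second W20 vehicle library (0.10, adjusted p = 0.226, edgeR) and without any 1 of the Y428F vehicle libraries, and with no filter on low counts (adjusted p = 0.0578, edgeR).

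*E2f2*, also an activating E2F and in W20 cells the gene with the lowest CPM of the list, showed the largest difference. It was read at 4.18, 3.01 and 3.38 CPM in W20 cells with vehicle and at 11.9, 10.6 and 11.5 CPM in Y428F cells, and with PTH at 2.71, 2.15 and 1.98 CPM and at 10.4, 8.53 and 8.54 CPM. The lines did not overlap, at 3.20-fold with vehicle (log2 fold change 1.68, SE 0.147, adjusted p = 7.09e-09, edgeR) and 4.01-fold with PTH (log2 fold change 2.00, SE 0.163, adjusted p = 2.31e-09, edgeR).

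*E2f7*, which with *E2f8* forms the atypical, repressive branch of the family, was read at 15.1, 13.7 and 16.3 CPM in W20 cells with vehicle and at 42.9, 40.8 and 45.4 CPM in Y428F cells. The PTH libraries gave 19.4, 21.5 and 19.3 CPM in W20 cells and 54.9, 63.2 and 55.0 CPM in Y428F cells. Its log2 fold change between the lines was 1.52 in each comparison (SE 0.0866 and adjusted p = 1.06e-11 with vehicle, edgeR), and the libraries formed 4 separate levels by line and treatment.

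*Mybl2*, B-MYB, which cooperates with the MuvB complex at mitotic promoters, was read at 20.3, 16 and 17.5 CPM in W20 cells with vehicle and at 54.4, 55.9 and 52.6 CPM in Y428F cells. After PTH the level was 18.2, 16.2 and 15.2 CPM in W20 cells and 52.6, 53.2 and 52.8 CPM in Y428F cells. The lines did not overlap, with a log2 fold change of 1.60 with vehicle (SE 0.0837, adjusted p = 2.79e-12, edgeR) and 1.68 with PTH.

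*Foxm1*, the forkhead factor of G2 genes, was read at 108, 94.2 and 104 CPM in W20 cells with vehicle and at 169, 171 and 192 CPM in Y428F cells. Under PTH the libraries held 110, 110 and 93.2 CPM in W20 cells and 175, 192 and 191 CPM in Y428F cells. The lines differed by a log2 fold change of 0.79 with vehicle (SE 0.0730, adjusted p = 1.62e-08, edgeR) and 0.83 with PTH, again with no overlap.

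The inhibitors ran the other way. Of 6 pocket proteins and CDK inhibitors, 4 were lower in Y428F cells and 1, *Rbl1* (p107, a pocket protein), was higher, in each line comparison. *Cdkn1b*, p27, which inhibits cyclin E with CDK2, was read at 101, 104 and 100 CPM in W20 cells with vehicle and at 70.0, 75.6 and 69.0 CPM in Y428F cells. In the treated groups it stood at 94.1, 89.9 and 102 CPM in W20 cells and at 82.6, 75.8 and 82.0 CPM in Y428F cells. The lines did not overlap at either treatment but lay closer together with PTH, with a log2 fold change of −0.50 with vehicle (SE 0.0608, adjusted p = 7.10e-07, edgeR) and −0.25 with PTH (SE 0.0609, adjusted p = 0.00189, edgeR).

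*Cdkn2b*, p15, an inhibitor of CDK4 and CDK6, was read at 151, 153 and 149 CPM in W20 cells with vehicle and at 120, 112 and 116 CPM in Y428F cells. With PTH it was read at 116, 115 and 131 CPM in W20 cells and at 108, 93.8 and 96.7 CPM in Y428F cells. Between the lines the difference on the log2 scale was −0.38 with vehicle (SE 0.0623, adjusted p = 3.12e-05, edgeR) and −0.28 with PTH (SE 0.0632, adjusted p = 0.00104, edgeR). The W20 libraries with PTH lay at about the level of the Y428F libraries with vehicle.

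*Cdkn2a* was read at 501, 510 and 511 CPM in W20 cells with vehicle and at 429, 401 and 414 CPM in Y428F cells. The PTH libraries gave 470, 471 and 488 CPM in W20 cells and 462, 375 and 418 CPM in Y428F cells. Its log2 fold change was −0.29 with vehicle (SE 0.0631, adjusted p = 0.000693, edgeR) and −0.19 with PTH (SE 0.0631, adjusted p = 0.0197, edgeR). The call with PTH was lost without the second Y428F PTH library (−0.13, adjusted p = 0.102, edgeR) and without the third W20 PTH library (−0.17, adjusted p = 0.0507, edgeR), and with library totals in place of TMM (−0.12, adjusted p = 0.137, edgeR) or only the PTH libraries fitted (−0.18, adjusted p = 0.0541, edgeR).

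*Rb1*, the retinoblastoma gene, was read at 9.04, 8.59 and 9.07 CPM in W20 cells with vehicle and at 8.76, 12.0 and 10.8 CPM in Y428F cells. After PTH the level was 9.32, 9.17 and 9.08 CPM in W20 cells and 10.2, 11.5 and 10.5 CPM in Y428F cells. The fitted log2 fold change was 0.24 with vehicle (SE 0.115, adjusted p = 0.0941, edgeR) and 0.22 with PTH (SE 0.116, adjusted p = 0.126, edgeR). Without the first Y428F vehicle library, the lowest of its group, it was 0.35 with vehicle (adjusted p = 0.0163, edgeR), and the lowest value with 1 library left out was 0.13. With library totals *Rb1* passed the threshold with vehicle (0.30, adjusted p = 0.0403, edgeR) and with PTH (0.29, adjusted p = 0.0475, edgeR).

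Other genes of the same pathway, 114 by name of which 112 were tested, showed the same kind of difference between the lines. With vehicle, 93 were higher and 5 lower in Y428F cells, with a median log2 fold change of 0.76, and with PTH 95 were higher and 4 lower, with a median of 0.87. Of 30 further replication genes, 29 were higher with vehicle, led by *Gins1*, of the GINS complex of the helicase, with a log2 fold change of 1.43 and *Dscc1*, a clamp loader subunit needed for sister chromatid cohesion, with 1.34. Of 42 further mitosis genes tested, 40 were higher, led by *Pbk*, a mitotic kinase, with 1.44 and *Cdca8*, borealin of the chromosomal passenger complex, with 1.19. Of 16 checkpoint and repair genes, 15 were higher, led by *Gmnn*, geminin, which blocks relicensing of origins, with 1.47 and *Brca1* with 1.45.

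Of 13 further E2F, DREAM and MYB factors tested, 5 were higher and 2 lower with vehicle, with a median log2 fold change of 0.06, where 22.4% of all genes were higher and 22.7% lower. *Mybl1*, A-MYB, had a log2 fold change of 0.91 and *Lin9*, of the MuvB core, of 0.75. Of 11 further CDK inhibitors and p53 genes, 4 were higher and 2 lower, with a median log2 fold change of 0.19. The highest value of that list, 0.73, belonged to a gene that was not called or lay under 2 CPM. The largest differences among those called with at least 2 CPM were both downward, in *Ccng2*, the unconventional cyclin G2, with a log2 fold change of −0.67 and *Cdkn1a*, p21, with −0.59. *Cdkn1a* was read at 12.0, 13.1 and 12.8 CPM in W20 cells with vehicle and at 7.61, 7.68 and 9.77 CPM in Y428F cells. All genes named from these lists passed the test (edgeR, adjusted p under 0.05).

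With PTH the leading genes of these lists were *Tk1*, thymidine kinase, with a log2 fold change of 1.65 between the lines, *Cdc7*, the kinase that fires origins, with 1.47, *Pbk* with 1.52, *Fbxo5*, an inhibitor of the anaphase-promoting complex, with 1.43, *Gmnn* with 1.49 and *Brca1* with 1.48. *Mybl1* had 1.08 and *Lin9* 0.95. *Ccng2* had −0.75 and *Plk3* 0.60.

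The 57 genes were set beside the other genes of their chromosomes. Over genes that averaged 4 CPM or more, the median log2 fold change with vehicle ran from −0.24 on chromosome 9 to 0.25 on chromosome 10. All 49 higher genes were above the median of their own chromosome, and all 5 lower genes were below it. With PTH, 49 of the 50 higher genes were above it, the exception being *Cdk4* on chromosome 10. The median of the 57 genes after subtracting the chromosome's median was 0.85 with vehicle and 0.96 with PTH.

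Markers of other cell types also moved with the line. Stromal markers, 14 genes with *Col1a2* the most abundant, summed to between 25817 and 29610 CPM in W20 libraries and between 15849 and 19877 CPM in Y428F libraries, with 9 lower and 2 higher in Y428F cells with vehicle. Haematopoietic markers, 7 genes, summed to between 0.531 and 1.14 CPM in W20 and between 20.6 and 22.3 CPM in Y428F libraries, where *Cd3e* was at 0. Most of that sum was *Ly6g*, at 0 to 0.123 CPM in W20 and 17 to 18.5 CPM in Y428F libraries. With vehicle 3 of the 7 genes were higher in Y428F cells, *Ly6g*, *Ptprc* and *Spi1*, whereas *Itgam* and *Laptm5* stayed at or below 0.215 CPM in every library, with lower means in Y428F than in W20 cells with vehicle. Endothelial markers, 4 genes led by *Cdh5*, summed to between 0.910 and 1.77 CPM and between 6.12 and 9.94 CPM in the 2 lines, and *Cdh5* was the 1 gene of these that was higher with vehicle.

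The 5 macrophage markers, with *Lyz2* the most abundant and *C1qa* at 0, summed to between 0.967 and 1.81 CPM in W20 and between 3.34 and 4.47 CPM in Y428F libraries. The 4 erythroid markers, led by *Hba-a1*, summed to between 0.707 and 1.69 CPM and between 4.09 and 5.05 CPM. The 4 epithelial markers, led by *Krt8* and with *Epcam* at 0, summed to between 0.246 and 0.967 CPM and between 2.89 and 4.80 CPM. The 3 adipocyte markers, nearly all *Fabp4* and with *Adipoq* at 0, summed to between 23.4 and 33.9 CPM in W20 and between 6.07 and 8.65 CPM in Y428F libraries. With vehicle the calls among these lists were *Lyz2*, *Hba-a1*, *Krt8* and *Cdh1*, all higher in Y428F cells, and *Fabp4*, lower. The part of these differences in the level of the 57 genes was not tested.

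After PTH for 2 hours, 2 of the 57 genes were higher and 11 lower in W20 cells (edgeR), where 7.42% of all genes were higher and 6.01% lower. In either direction 22.8% of the 57 were called, against 13.4% of all genes. Among genes with at least 10 counts in every library, which all 57 had, the shares were nearly equal, at 24.6% and 23%. Without the first vehicle library 4 were higher and 5 lower, and when only the W20 libraries were fitted 12.3% of the 57 were called, against 11.8% of all genes. With library totals in place of TMM, 2 of the 57 were higher and 22 lower, and over all genes 956 were higher and 1608 lower in place of 1312 and 1063. The median log2 fold change of the 57 was −0.09, against −0.02 over all genes, and it went to −0.05 without the first vehicle library and to −0.14 without the second. The libraries of the treatments did not overlap for 21 of the 57 genes, and for 26.4% of all genes. The stricter limit was passed by 5 of the 57, against 6.07% of all genes.

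In Y428F cells 3 of the 57 were higher with PTH and 2 lower (edgeR), where 6.61% of all genes were higher and 5.78% lower. With library totals, 2 were higher and 7 lower, and over all genes 888 were higher and 1445 lower in place of 1170 and 1022. The median was 0.01, against −0.01 over all genes, and lay between −0.03 and 0.01 with 1 library left out. The libraries did not overlap for 28 of the 57 genes and for 30.8% of all genes. The stricter limit was passed by 2 of the 57, against 5.32% of all genes. In either direction 8.77% of the 57 were called and 12.4% of all genes. The order of these shares turned with library totals (15.8% and 13.2%), with DESeq2 (14% and 13.4%) and with no filter on low counts (17.5% and 9.9%). It also turned without the third W20 PTH library (14% and 13.8%), and in no other fit. Among genes with at least 10 counts in every library the order was kept and the gap was wider (12.3% and 21.3%). *E2f7* was higher in each line, and *Ccnd1* and *Cdkn2b* were lower in each. The PTH comparisons of the lines share no library, but they draw on a common estimate of the spread.

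**Figure D4:**
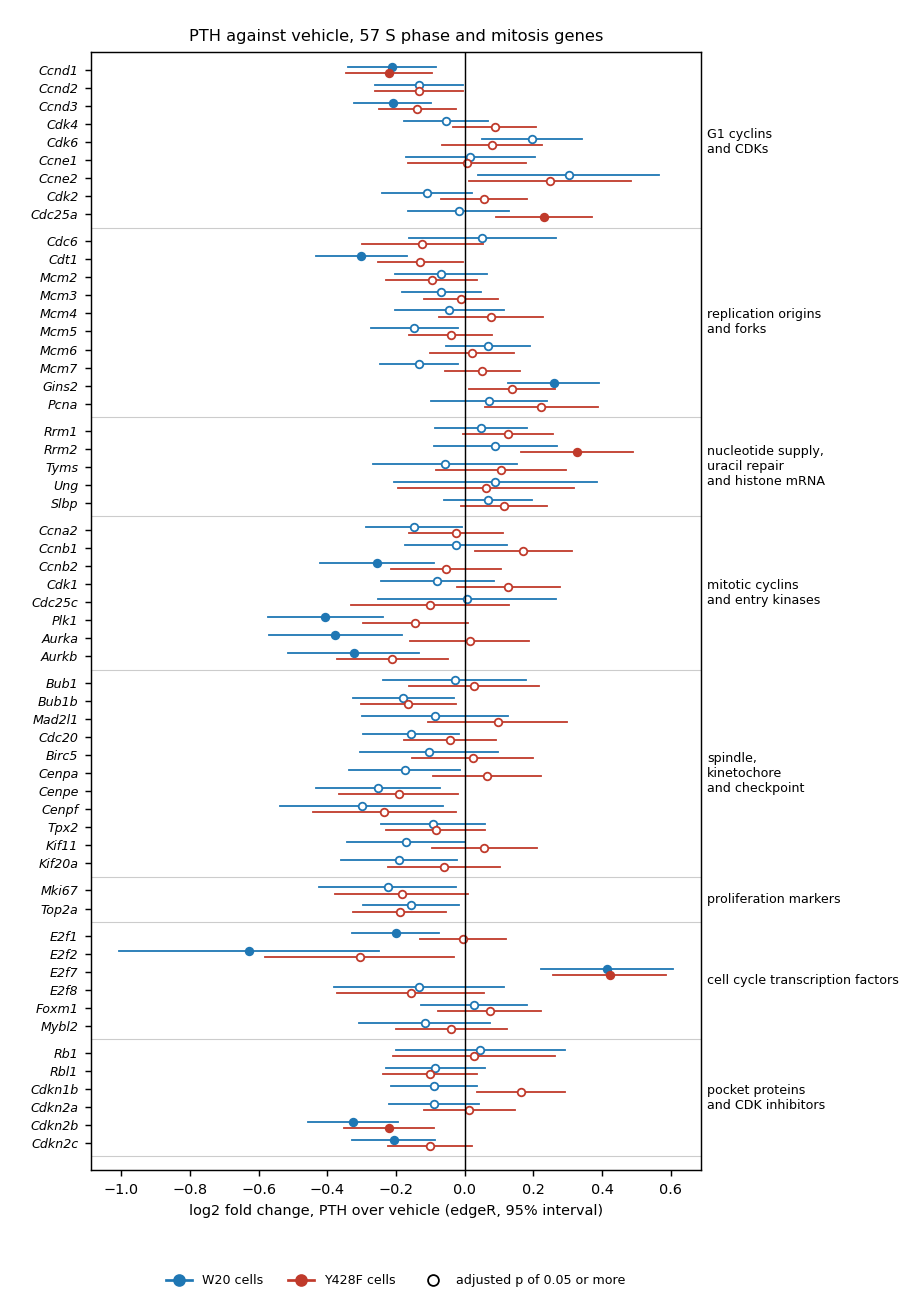
Log2 fold change of each gene with PTH over vehicle (horizontal axis) with its 95% interval, in W20 cells (blue) and Y428F cells (red), in groups by role. Filled points have an adjusted p under 0.05 in edgeR; *E2f7* lies to the right of 0 in each line, and *E2f2* in W20 cells is the farthest to the left at −0.63.

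*E2f7* was the gene with the largest rise, a log2 fold change of 0.41 in W20 cells (SE 0.0918, adjusted p = 0.00410, edgeR) and 0.42 in Y428F cells (SE 0.0784, adjusted p = 0.00104, edgeR). From the values given above, all treated libraries of a line were above all its untreated ones. It remained past the threshold without any 1 of the 12 libraries, with log2 fold changes from 0.36 to 0.48 in W20 cells and from 0.35 to 0.46 in Y428F cells.

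*Ccnd1* was lower with PTH in each line, with a log2 fold change of −0.21 in W20 cells (SE 0.0615, adjusted p = 0.0260, edgeR) and −0.22 in Y428F cells (SE 0.0606, adjusted p = 0.0196, edgeR). Treated and untreated libraries did not overlap in either line. In W20 cells the call was lost without the second or the third vehicle library or the first or the third PTH library (highest adjusted p = 0.116, edgeR), or when only the W20 libraries were fitted (adjusted p = 0.0692, edgeR), and in Y428F cells without the first vehicle library or the first or the third PTH library (highest adjusted p = 0.0859, edgeR). *Cdkn2b* was lower with log2 fold changes of −0.33 in W20 cells (SE 0.0624, adjusted p = 0.00119, edgeR) and −0.22 in Y428F cells (SE 0.0631, adjusted p = 0.0248, edgeR), also with no overlap. The call in Y428F cells was lost without the first or the third vehicle library or the second or the third PTH library (highest adjusted p = 0.132, edgeR).

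In W20 cells the lower genes held several kinases of mitosis. *Plk1*, the Polo-like kinase that drives mitotic entry and spindle assembly, was read at 56.0, 47.7 and 47.3 CPM with vehicle and at 39.7, 41.3 and 33.0 CPM with PTH. The change was −0.41 on the log2 scale (SE 0.0801, adjusted p = 0.00152, edgeR) with no overlap, and it remained past the threshold without any 1 of the 12 libraries. In Y428F cells it was read at 111, 102 and 109 CPM with vehicle and at 96.4, 96.5 and 98.2 CPM with PTH. These libraries did not overlap either, but the difference did not pass the test.

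*Aurka*, the kinase of spindle poles, was read at 44.2, 33.0 and 33.5 CPM in W20 cells with vehicle and at 30.4, 27.6 and 27.4 CPM with PTH. The change was −0.38 on the log2 scale (SE 0.0927, adjusted p = 0.00885, edgeR), and without the first vehicle library, the highest, it was −0.22 (adjusted p = 0.0578, edgeR). In Y428F cells it was read at 73.0, 76.4 and 75.9 CPM with vehicle and at 79.4, 70.9 and 77.3 CPM with PTH, where treated and untreated libraries overlapped. *Aurkb* was lower in W20 cells with a log2 fold change of −0.32 (SE 0.0916, adjusted p = 0.0222, edgeR). That call was lost without the first or the third vehicle library or the first or the third PTH library, and when only the W20 libraries were fitted (adjusted p = 0.0585, edgeR), and the value went to −0.23 without the third PTH library (adjusted p = 0.111, edgeR).

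*E2f2* had the largest change in W20 cells, a log2 fold change of −0.63 (SE 0.182, adjusted p = 0.0250, edgeR). The call was lost without the first vehicle library (−0.48, adjusted p = 0.120, edgeR), without the second or the third PTH library, and when only the W20 libraries were fitted (−0.62, adjusted p = 0.0968, edgeR). *E2f1* was lower with −0.20 (SE 0.0611, adjusted p = 0.0323, edgeR), a call that was lost without the first or the third vehicle library, any PTH library of W20 cells or the third Y428F vehicle library, and when only the W20 libraries were fitted (adjusted p = 0.102, edgeR). *Cdt1*, which licenses origins with CDC6, was lower with PTH in W20 cells, from a mean of 52.6 ± 1.71 to 42.7 ± 2.92 CPM (SD, n = 3), and *Gins2*, of the GINS complex, was higher, from 41.4 ± 2.05 to 49.5 ± 2.68 CPM, a call that was lost without the second vehicle or the first PTH library. *Ccnb2*, *Ccnd3* and *Cdkn2c* were the remaining lower genes. *Ccnd3* lost its call without the second or the third vehicle library. *Cdkn2c* lost it without the first or the third vehicle library or the first or the second PTH library, and *Ccnb2* without the first or the second vehicle library or the first or the third PTH library or any of 3 Y428F libraries, and each lost it when only the W20 libraries were fitted.

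The first W20 vehicle library stood apart from the other two for the genes of mitosis. The median log2 level of the 8 mitotic cyclins and entry kinases, relative to their mean over all 12 libraries, was −0.21 there, against −0.56 and −0.53 in the second and the third. In the 3 PTH libraries it was −0.60, −0.59 and −0.60. Without that library 4 of the 57 genes were higher with PTH in W20 cells and 5 lower, 7 of the 13 calls were kept, and *Aurka*, *Aurkb*, *Ccnb2*, *Cdkn2c*, *E2f1* and *E2f2* were lost. *Rrm2* became a call at 0.24 (adjusted p = 0.0280, edgeR), from 0.09 with all libraries. The line difference with vehicle kept all 54 calls without it.

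**Figure D5:**
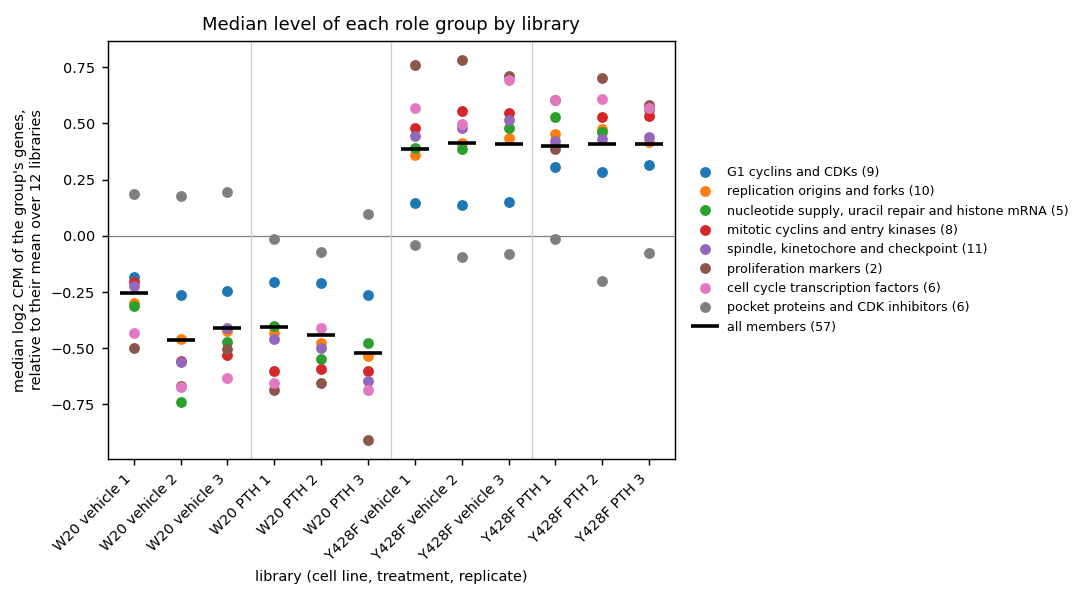
Median over each role group's genes of the log2 CPM relative to the gene's mean over all 12 libraries (vertical axis), by library (horizontal axis), with the number of genes in brackets and a black bar for all 57. The black bar lies between −0.52 and −0.26 in W20 libraries and between 0.39 and 0.41 in Y428F libraries, and the black bar of the first W20 vehicle library lies above the others of its line.

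The spindle, kinetochore and checkpoint group gave no call with PTH in W20 cells, although all 11 of its fold changes were negative, with a median of −0.17. Its median log2 level, relative to the mean over all 12 libraries, was −0.23, −0.56 and −0.41 in the W20 vehicle libraries. With PTH it was −0.46, −0.50 and −0.64, so the treatments overlapped and the first vehicle library was again the highest. Among the proliferation markers *Mki67* had a log2 fold change of −0.22 (adjusted p = 0.142, edgeR) and *Top2a* of −0.16 (adjusted p = 0.139, edgeR) in W20 cells. In Y428F cells *Mki67* had −0.18 (adjusted p = 0.235, edgeR) and *Top2a* −0.19 (adjusted p = 0.0647, edgeR). In W20 cells *Mki67* passed the threshold with library totals (adjusted p = 0.0467, edgeR), with no filter on low counts (0.00790) and without the first Y428F PTH library (0.0401), and *Top2a* with library totals (0.0295). In Y428F cells *Top2a* passed it with DESeq2 (adjusted p = 0.0300) and in several of the other fits, and *Mki67* with no filter (adjusted p = 0.0450, edgeR). With 1 library left out, *Mki67* ran from −0.27 to −0.06 in Y428F cells. *Cdk1* had log2 fold changes of −0.08 and 0.13 and *Ccnb1* of −0.03 and 0.17 in W20 and Y428F cells, *Mcm2* of −0.07 and −0.10 and *Pcna* of 0.07 and 0.22, none past the threshold. In Y428F cells *Pcna* passed it with DESeq2 (adjusted p = 0.0474), with no filter on low counts (0.00415, edgeR), when only the Y428F libraries were fitted (0.00995), and without the first W20 vehicle (0.0162) or the third W20 PTH library (0.0496). *Ccnb1* passed it there when only the Y428F libraries were fitted (adjusted p = 0.0326, edgeR) and without the first W20 vehicle library (0.0307).

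In Y428F cells the higher genes beside *E2f7* were *Rrm2* and *Cdc25a*, and none of the 10 genes of replication origins and forks was called. *Rrm2* rose with a log2 fold change of 0.33 (SE 0.0778, adjusted p = 0.00755, edgeR), from libraries of 135 to 146 CPM to libraries of 166 to 186 CPM. It remained past the threshold without any 1 of the 12 libraries, with a highest adjusted p of 0.0493 (edgeR). *Cdc25a* was read at 36.6, 35.8 and 37.2 CPM with vehicle and at 42.7, 42.6 and 43.4 CPM with PTH, which is 0.23 on the log2 scale (SE 0.0665, adjusted p = 0.0257, edgeR). That call was lost without any 1 of the 6 Y428F libraries, with a highest adjusted p of 0.102 (edgeR), and with library totals (adjusted p = 0.0653, edgeR).

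Among the other genes of the pathway, 3 were higher and 18 lower with PTH in W20 cells, with a median of −0.13, and 3 were higher and 9 lower in Y428F cells, with a median of −0.01. In either direction 18.8% of these genes were called in W20 cells, against 13.4% of all genes, and 10.7% in Y428F cells, against 12.4%. *Btg2*, an antiproliferative gene, had the largest change in each line. It was read at 20.7, 20.1 and 19.6 CPM in W20 cells with vehicle and at 9.43, 9.66 and 8.68 CPM with PTH, and in Y428F cells at 16, 20 and 17 CPM and at 7.76, 8.08 and 8.10 CPM. The libraries were well apart, with a log2 fold change of −1.12 in W20 cells (SE 0.10, adjusted p = 1.24e-07, edgeR) and −1.15 in Y428F cells (SE 0.102, adjusted p = 2.25e-07, edgeR).

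*Espl1*, separase, which cuts cohesin at anaphase, was lower at −0.53 in W20 and −0.41 in Y428F cells, and *Brca2* at −0.49 and −0.47. In W20 cells *Tk1* was lower at −0.46, *Kif18b*, a kinesin of spindle microtubules, at −0.50 and *Chek2*, a checkpoint kinase, at −0.48, whereas *Orc1*, of the origin recognition complex, was higher at 0.43 and *Plk2*, a Polo-like kinase of the p53 response, at 0.68. In Y428F cells *Pold1*, a catalytic subunit of DNA polymerase delta, was lower at −0.46, *Uhrf1* at −0.19, *Brca1* at −0.34 and *Cdkn2d*, p19 of the INK4 family, at −0.53, whereas *Anln*, anillin of the cleavage furrow, was higher at 0.31 and *Lin54*, of the MuvB core, at 0.42. Each of these passed the test in the line named (edgeR, adjusted p under 0.05).

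Whether PTH acted differently in the lines was tested by the interaction of line and treatment. None of the 57 genes passed it in edgeR (0.413% of all genes did), and DESeq2 also called 0. An unadjusted p under 0.05 (edgeR) was reached by 7 of the 57, a larger share than the 7.05% of all genes. The latter takes in genes with fewer counts than any of the 57, and no share over genes of like level was computed. The largest difference was that of *Aurka*, whose log2 response was 0.39 higher in Y428F than in W20 cells (SE 0.124, adjusted p = 0.356, edgeR). It passed the threshold only in the fit without a filter on low counts (0.40, adjusted p = 0.0282, edgeR). *Plk1* differed by 0.26 (adjusted p = 0.626, edgeR) and *Cdkn1b* by 0.25 (adjusted p = 0.418, edgeR). The median difference of the 57 genes was 0.10, against 0.002 over all genes. It was 0.01 without the first W20 vehicle library and 0.04 without the third W20 PTH library. That no gene of the list passed does not show that the responses were alike.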

How the data were processed

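Bulk RNA-Seq of 12 libraries of W-20 cells was used. The authors mapped reads with STAR 2.7.10b to GRCm39 and deposited RSEM expected counts for each gene without scaling to library size, and 6.32% of the values were not whole. Here they were rounded to whole numbers, and genes with 10 counts or more over all libraries were fitted in R 4.3.3 with edgeR 4.0.16 (TMM, 1 fit of 12 libraries, quasi-likelihood test, Benjamini-Hochberg adjustment over all genes tested). A gene was called at an adjusted p under 0.05. CPM and CPM per kb used TMM library sizes and, for length, the union of exons in GENCODE vM39, to which 56236 of the identifiers were matched. Every matrix column belonged to 1 of the 12 libraries. The 57 genes and the other lists were chosen with earlier results of these data known, so their counts do not support a pattern already seen. Values in every library were given for 15 anchor genes, for *Yap1* and for the 6 called genes with the largest fold change in each comparison, and from each other list the 2 called genes with the largest fold change and at least 2 CPM were named. Values of *Plk2* and *Btg2* in each library, and of *Cdkn1a* in each library with vehicle, were added after their values were seen. Alternatives were DESeq2 1.42.0, other scalings and filters, a stricter limit, fits of only the libraries compared, the replicate number as a block, and each library left out. The fits were also run on simulated data, and no outcome of that is reported or relied on here. RNA counts carry no molecular identifiers, so precision rests on the spread between libraries of a median of 17740980 counts.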

Additional observations from a re-analysis of the deposited data

Results flagged for a closer look

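Of the 112 other pathway genes tested, 1 passed the test of the difference in PTH response between the lines, where 0.413% of all genes did. *Plk2*, a Polo-like kinase of centriole duplication and the p53 response, was read at 32.6, 35.8 and 34.7 CPM in W20 cells with vehicle and at 57.4, 58.5 and 49.7 CPM with PTH. In Y428F cells it was read at 39.3, 40.1 and 42.6 CPM with vehicle and at 46.2, 47.0 and 39.1 CPM with PTH. Its log2 response was 0.68 in W20 cells (SE 0.0810, adjusted p = 5.89e-06, edgeR) and 0.12 in Y428F cells (adjusted p = 0.417, edgeR), and the difference between them was −0.57 (SE 0.114, adjusted p = 0.0271, edgeR). Treated libraries were all above untreated ones in W20 cells and overlapped with them in Y428F cells.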

How the results depend on the processing

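The number of the 57 genes higher in Y428F cells stayed within 1.5 times its value under every alternative, with and without PTH. Counts that moved further were these. With the stricter limit (adjusted p under 0.01, log2 change past 0.3), 1 gene was higher and 4 lower with PTH in W20 cells, 0 were lower in Y428F cells, and 2 and 0 were lower between the lines with vehicle and with PTH. Library totals gave 22 and 7 lower with PTH in the lines and 2 lower between the lines with PTH. Fits of only the libraries compared gave 5 lower with PTH in W20 cells, and 5 higher and 4 lower in Y428F cells. DESeq2 gave 4 lower in Y428F cells, no filter 6 and at least 10 counts in every library 4; no filter also gave 1 higher for the difference in response. Leaving out 1 library gave 1 to 4 higher and 5 to 13 lower with PTH in W20 cells, 2 to 5 higher and 0 to 4 lower in Y428F cells, and 3 to 5 lower between the lines with PTH. With PTH in W20 cells, 4 were higher and 5 lower without the first vehicle library, 1 was higher without the second vehicle library, 6 were lower without the third vehicle or the third PTH library, and 1 was higher and 7 lower without the first PTH library. In Y428F cells, 5 were higher without the first W20 vehicle library, 4 were lower without the third W20 PTH library, 0 without the first Y428F vehicle or the third Y428F PTH library, and 1 without the third Y428F vehicle or the first Y428F PTH library. Between the lines with PTH, 3 were lower without the third W20 PTH or the second Y428F PTH library.

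Of the 71 single-gene values that were recomputed, those of *Ccnb1* and *Cdk1* changed sign, without the first W20 vehicle library. Over the 12 fits that leave out a library, the PTH response in W20 cells ran from −0.0877 to 0.0858 for *Ccnb1* and from −0.136 to 0.0449 for *Cdk1*, never past the threshold. The median response of the 57 genes in Y428F cells also changed sign, to −0.012 and −0.017 without the first or the second Y428F vehicle library, −0.034 and −0.0079 without the first or the second Y428F PTH library, and −0.034 with library totals. Over the 71 single-gene values, 45 settings took one below the threshold and 26 brought one past it.

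The replicate number did not pair the samples (18 same-numbered pairs, r from −0.031 to 0.037 over genes). With it as a replicate block, all 13, 5, 54 and 55 calls were kept.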
